A study of Mus musculus with 10 samples.

Results

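The oligosaccharyltransferase genes described here are Krtcap2 and 9 other genes of the same enzyme complex, measured in liver RNA of mice that carry the S400D substitution in the mitochondrial serine protease HtrA2/Omi. The 10 members were taken by name (Krtcap2, Ddost, Rpn1, Rpn2, Stt3a, Stt3b, Dad1, Ostc, Tmem258 and Magt1) from the 19271 genes in the table. Krtcap2 was chosen because it had the smallest unadjusted p of all genes tested between homozygous and wild-type males (rank 1), and the other 9 because they encode partners of its protein. The difference in Krtcap2 between those 2 groups is therefore a description and carries no test. All 10 members had enough reads to be tested in every comparison.

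The 10 liver libraries fall into 4 groups, all from C57BL6/N mice killed at 2 months of age. They were 1 library of a female homozygous for the mutation (S400D/S400D), 3 of homozygous males, 3 of heterozygous males (S400D/WT) and 3 of wild-type males (WT/WT). No source used here says how the mutation was introduced. Nothing in the labels says whether replicates came from separate animals, so "male 1" and the like name libraries and p-values measure the spread between these libraries. The single female is the only sample of that sex, so sex and the individual library cannot be told apart.

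Oligosaccharyltransferase sits in the membrane of the endoplasmic reticulum. It moves a preassembled sugar tree from a lipid carrier onto asparagine residues of proteins as they enter the secretory pathway. Mammals have 2 forms of the enzyme, one built on the catalytic subunit STT3A and one on STT3B. The STT3A form works during translation at the SEC61 channel and holds the accessory subunits KRTCAP2 (also called KCP2) and OSTC (also called DC2). The STT3B form holds one of the oxidoreductases MAGT1 and TUSC3 and acts on sites that the STT3A form passed over. DDOST, RPN1, RPN2, DAD1, TMEM258 and OST4 are subunits of both forms. Hepatocytes depend on the enzyme for most of the plasma proteins that they secrete.

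Krtcap2 (gene 66059) lies at chr3:89245904-89249729 of GRCm38.p6, on the forward strand. The 300 bases around a RefSeq start of the gene (250 before it and 50 from it onward, chr3:89246223-89246522, forward strand, GRCm38.p6) are shown because the members' promoters were searched for motifs of the unfolded protein response. Capitals mark the match to ERSE-II, an element bound by factors of that response.
Krtcap2 promoter: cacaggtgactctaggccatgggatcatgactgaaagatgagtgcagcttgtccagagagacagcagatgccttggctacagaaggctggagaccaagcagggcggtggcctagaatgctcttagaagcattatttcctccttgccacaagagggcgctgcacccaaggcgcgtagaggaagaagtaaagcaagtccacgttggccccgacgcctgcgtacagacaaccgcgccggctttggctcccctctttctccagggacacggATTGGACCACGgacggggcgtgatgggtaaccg
The ERSE-II match runs from base 17 to base 27 counted from the start and holds an inverted CCAAT box at bases 17 to 21. ERSE-II was searched on both strands as ATTGG and CCACG with 1 base between them, a motif added after this sequence had been read. Of 27025 genes with a promoter window in RefSeq, 12 (0.0444%) hold it. Among the members, 9 of 10 were matched to a window, and Krtcap2 was the 1 member with ERSE-II. The longer ERSE (CCAAT and CCACG with 9 bases between them, both strands) was in 0 members and in 0.137% of genes. A CCAAT box (CCAAT, both strands) was in the windows of 8 members and of 41.1% of genes, and a GC box (GGGCGG, both strands) in those of 6 members and of 38.2% of genes. The ETS core CCGGAAG was found for Ddost and Tmem258 (9.93% of genes), the E-box CACGTG for Magt1 (8.09%), and TATAAA for 0 members (15.7%), all on both strands. These matches describe letters in a window and say nothing of binding.

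The start of the Krtcap2 coding sequence is shown because its 2 curated transcripts differ there. The sequence below is spliced from 2 exons of the longer transcript NM_025327 (159 bases, within chr3:89246512-89246932, forward strand, GENCODE M21 on GRCm38). Capitals mark the 66 bases, or 22 codons, that precede the start codon of the shorter transcript NM_001310625.
Krtcap2 coding start: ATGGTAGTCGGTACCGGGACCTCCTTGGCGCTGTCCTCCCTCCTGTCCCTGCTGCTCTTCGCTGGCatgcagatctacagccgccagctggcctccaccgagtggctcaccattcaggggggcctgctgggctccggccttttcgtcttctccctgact
NM_025327 has 136 codons and NM_001310625 has 114, in the same frame. Both have 5 exons. The first exon ends at 89246515 in NM_025327 and at 89246593 in NM_001310625, and the start codons lie at 89246512 and 89246840.

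Krtcap2 RNA was lower in all 4 homozygous livers than in all 6 other livers. It had 27.0 CPM (reads scaled to a common library total with edgeR's TMM factors) in the homozygous female, 22.7, 25.1 and 25.4 CPM in homozygous males, 41.4, 35.4 and 38.9 CPM in heterozygous males, and 38.9, 42.6 and 46.5 CPM in wild-type males. Homozygous males averaged 24.4 ± 1.46 CPM, heterozygous males 38.5 ± 3.04 CPM and wild-type males 42.7 ± 3.83 CPM (SD, n = 3 each). The homozygous values do not overlap with the rest, whereas heterozygous and wild-type males overlap. Of the 12427 genes tested in males, 390 (3.14%) were lower in all 4 homozygotes than in the 6 other males. They include 3 members, Rpn1, Tmem258 and Krtcap2, the last of which was chosen on homozygous against wild-type males. The log2 fold change of Krtcap2 was -0.80 (SE 0.10) in homozygous against wild-type males, given as a description. In bulk liver RNA, fewer cells of a type and less RNA per cell cannot be told apart.

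**Figure D1:**
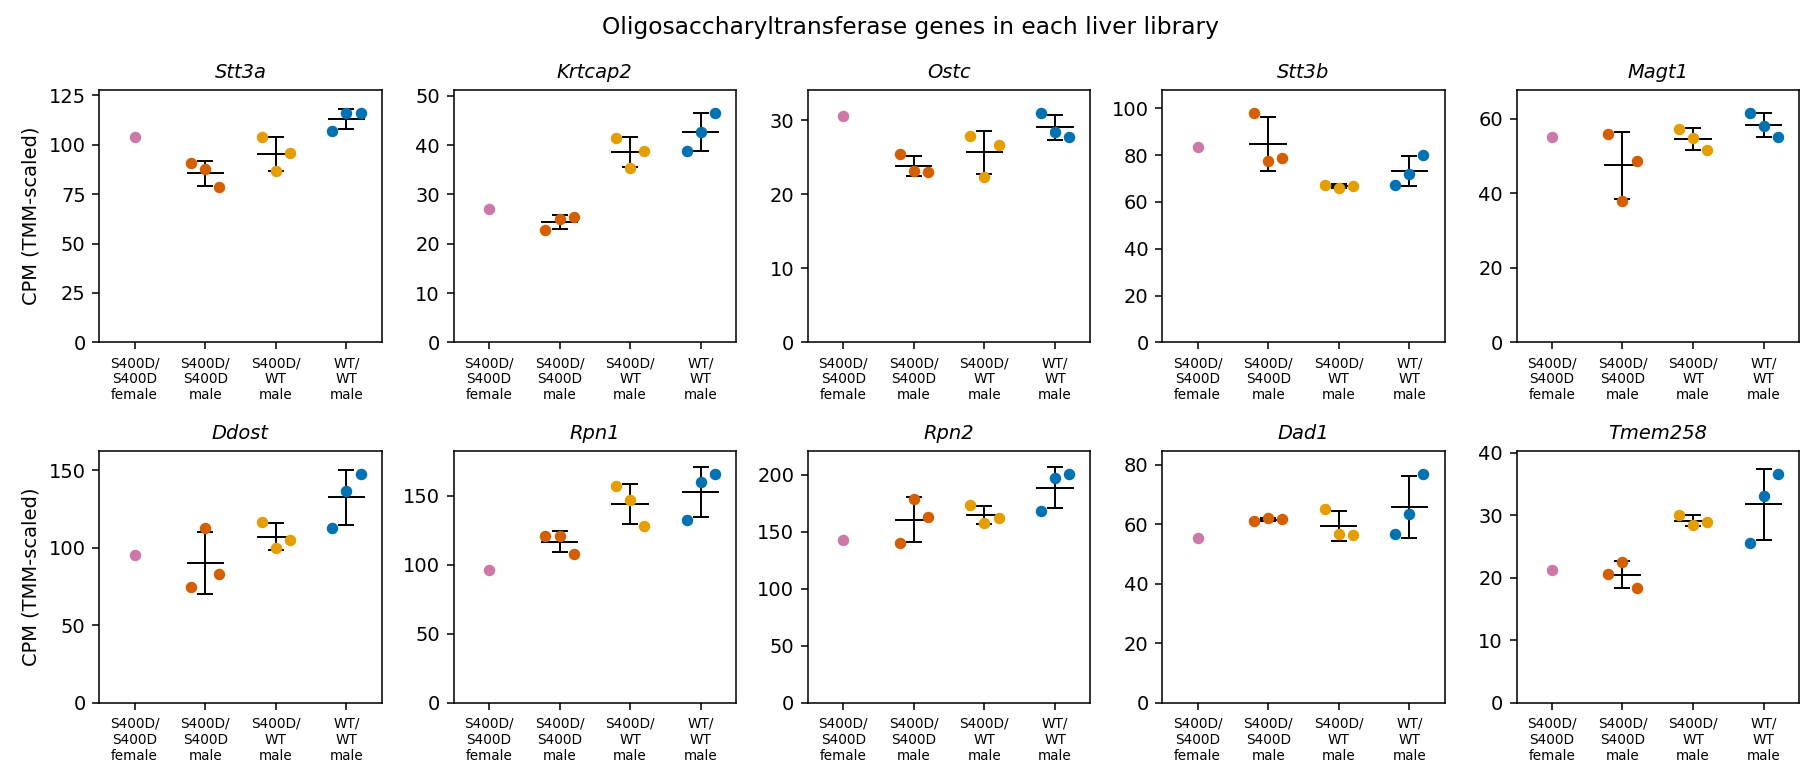
CPM (TMM-scaled, linear axis from 0) of the 10 members in each liver library, 1 panel per gene, with genotypes S400D/S400D female, S400D/S400D male, S400D/WT male and WT/WT male from left to right. Points are libraries, and black bars are the mean ± SD of 3 males. Krtcap2 lies between 22.7 and 27.0 CPM in the 4 homozygotes and between 35.4 and 46.5 CPM in the 6 other males, while Stt3b is the 1 member whose mean is above wild type in homozygous males.

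Homozygous against wild-type males asked what 2 mutant alleles do. Beyond Krtcap2, RNA of most complex partners was lower in homozygous males, and Stt3b was higher, but no member passed the threshold of an adjusted p under 0.05. In edgeR's quasi-likelihood test with Benjamini-Hochberg adjustment, 0 of 10 members and 0 of 12427 genes (0%) passed. At an unadjusted p under 0.05 there were 1852 genes in all (14.9%). Of these, 1004 were lower (8.08%) and include 6 members (Krtcap2, Tmem258, Stt3a, Ddost, Rpn1 and Ostc), and 848 were higher (6.82%) and include 0 members. DESeq2 called 310 genes (2.58%), 199 of them lower (1.66%), with 3 members among the lower ones. These were Krtcap2, which was chosen on this comparison, Tmem258 (DESeq2 adjusted p = 0.0147) and Stt3a (DESeq2 adjusted p = 0.0396). limma-voom called 0 genes and 0 members. Without wild-type male 1, edgeR called 18 genes and 1 member, Krtcap2, and without homozygous male 2 it called 2 genes and 0 members. Because Krtcap2 was chosen on these groups, its place in each count is not a result.

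Stt3a encodes the catalytic subunit of the cotranslational enzyme. It had 104 CPM in the homozygous female, 90.5, 87.7 and 78.4 CPM in homozygous males, 104, 86.7 and 95.7 CPM in heterozygous males, and 107, 116 and 116 CPM in wild-type males. The homozygous female was level with the highest heterozygous male. Homozygous and wild-type males did not overlap (85.6 ± 6.33 CPM and 113 ± 5.00 CPM, SD, n = 3 each), and the log2 fold change was -0.40 (SE 0.10, edgeR adjusted p = 0.206). With curated transcripts alone, which hold few of its reads, it was -0.75. Ostc, the partner of KRTCAP2 in the STT3A enzyme, had 30.6 CPM in the homozygous female, 25.4, 23.2 and 23.0 CPM in homozygous males, 27.9, 22.4 and 26.7 CPM in heterozygous males, and 31.0, 28.4 and 27.8 CPM in wild-type males. Its homozygous and wild-type males did not overlap either, and its log2 fold change was -0.28 (SE 0.11, edgeR adjusted p = 0.278). The homozygous female lay inside the wild-type range of Ostc.

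Stt3b, which encodes the other catalytic subunit, was the 1 member with a positive log2 fold change in homozygous against wild-type males. Its values were 83.4 CPM in the homozygous female, 98.0, 77.4 and 78.7 CPM in homozygous males, 67.4, 65.8 and 67.0 CPM in heterozygous males, and 67.2, 72.1 and 80.1 CPM in wild-type males. Homozygous males all exceeded heterozygous males but overlapped with wild-type males. The log2 fold change was 0.21 (SE 0.11, edgeR adjusted p = 0.407) against wild type, 0.10 without homozygous male 1, and 0.35 (SE 0.11, edgeR adjusted p = 0.19) against heterozygous males. Magt1, the X-linked oxidoreductase of the STT3B enzyme, had 55.2 CPM in the homozygous female, 56.0, 38.1 and 48.7 CPM in homozygous males, 57.4, 54.8 and 51.7 CPM in heterozygous males, and 61.6, 58.2 and 55.1 CPM in wild-type males. Homozygous male 1 lay inside the wild-type range of Magt1 and the other 2 lay below it, with a log2 fold change of -0.29 (SE 0.13, edgeR adjusted p = 0.35). Tusc3, which takes the place of MAGT1 in some STT3B complexes, was between 4.57 and 10.4 CPM across the 10 libraries, and its log2 fold change was -0.10 (SE 0.22, edgeR adjusted p = 0.847).

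The ratio of the 2 catalytic subunits was formed after their values had been seen and carries no test. On the per-length scale of TPM (transcript abundance corrected for length and scaled to a common total), Stt3a over Stt3b was 1.46 in the homozygous female, 1.09, 1.33 and 1.17 in homozygous males, 1.81, 1.55 and 1.67 in heterozygous males, and 1.87, 1.89 and 1.70 in wild-type males. All 4 homozygotes lay below all 6 other livers in this ratio. The mean was 1.20 ± 0.122 in homozygous males, 1.68 ± 0.133 in heterozygous males and 1.82 ± 0.103 in wild-type males (SD, n = 3 each).

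**Figure D2:**
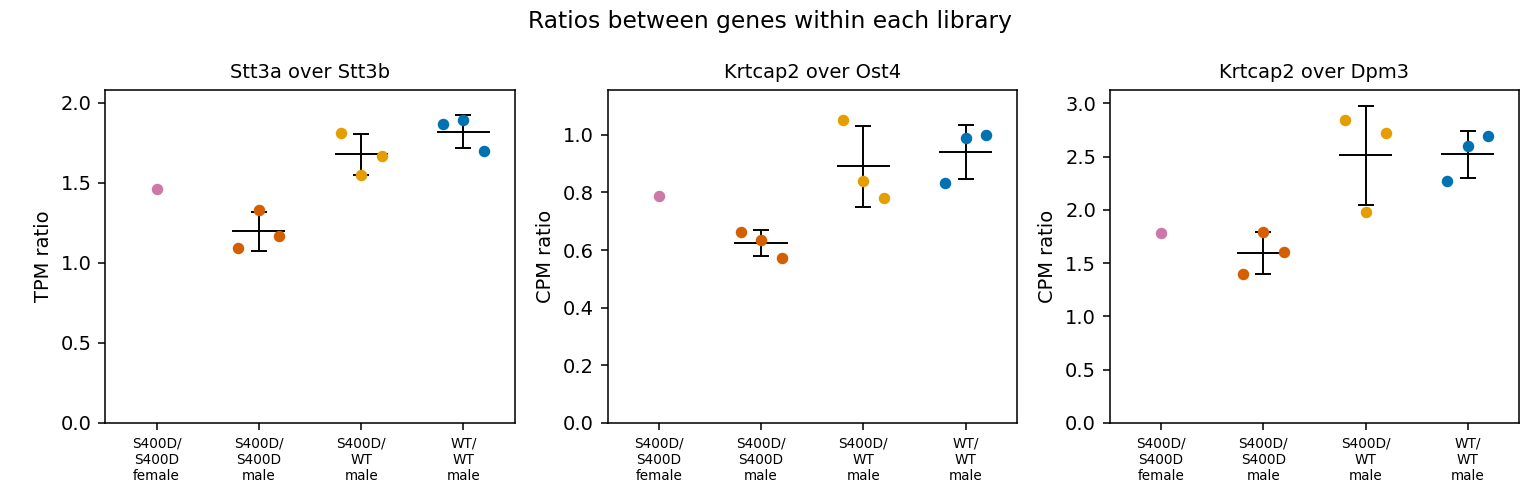
Ratios between pairs of genes within each library on linear axes from 0, with genotypes in the order homozygous female, homozygous, heterozygous and wild-type males. Points are libraries and black bars the mean ± SD of 3 males. Stt3a over Stt3b (TPM) is at most 1.46 in the 4 homozygotes and at least 1.55 in the others, Krtcap2 over Dpm3 (CPM) is at most 1.79 and at least 1.98, and Krtcap2 over Ost4 (CPM) is 0.789 in the homozygous female and 0.78 in heterozygous male 3, so it overlaps.

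Among the subunits of both enzyme forms, Tmem258 had the most negative log2 fold change in homozygous against wild-type males. Of all members, only that of Krtcap2 was lower. This order changed with the length trend removed (-0.32 for Tmem258, -0.53 for Ddost and -0.53 for Krtcap2). Tmem258, a small membrane subunit, had 21.2 CPM in the homozygous female, 20.6, 22.6 and 18.4 CPM in homozygous males, 30.1, 28.4 and 29.0 CPM in heterozygous males, and 25.6, 33.1 and 36.7 CPM in wild-type males. The 4 homozygotes were again below the 6 other livers. Its log2 fold change was -0.63 (SE 0.14, edgeR adjusted p = 0.16) in homozygous against wild-type males and -0.51 (SE 0.14, edgeR adjusted p = 0.143) against heterozygous males. Rpn1, which encodes ribophorin I, had 96.0 CPM in the homozygous female, 121, 121 and 108 CPM in homozygous males, 157, 147 and 128 CPM in heterozygous males, and 132, 160 and 166 CPM in wild-type males. It shows the same separation, with a log2 fold change of -0.38 (SE 0.12, edgeR adjusted p = 0.25) against wild-type males. Rpn1, at chr6:88084473-88105304, lies 5.03 Mb from Htra2 on the same chromosome.

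Ddost, which encodes the OST48 subunit, had 95.7 CPM in the homozygous female, 74.7, 113 and 83.4 CPM in homozygous males, 117, 99.9 and 105 CPM in heterozygous males, and 113, 137 and 148 CPM in wild-type males. Homozygous male 2 was level with the lowest wild-type male, and the log2 fold change was -0.55 (SE 0.17, edgeR adjusted p = 0.236). Rpn2, which encodes ribophorin II, had 143 CPM in the homozygous female, 140, 179 and 163 CPM in homozygous males, 173, 158 and 162 CPM in heterozygous males, and 168, 197 and 201 CPM in wild-type males. Its male groups overlapped, with a log2 fold change of -0.23 (SE 0.12, edgeR adjusted p = 0.41), which was -0.01 when curated transcripts alone were counted.

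Dad1, named as a defender against cell death, had 55.4 CPM in the homozygous female, 61.2, 62.0 and 61.7 CPM in homozygous males, 65.2, 56.8 and 56.3 CPM in heterozygous males, and 56.8, 63.6 and 77.1 CPM in wild-type males. The homozygous males lay inside the wild-type range, and their log2 fold change was -0.09 (SE 0.12, edgeR adjusted p = 0.734). Without wild-type male 3 it was 0.05. The homozygous female was below all 9 males. Ost4, a very small subunit outside the 10 members, had 34.2 CPM in the homozygous female, 34.3, 39.5 and 44.3 CPM in homozygous males, 39.6, 42.1 and 49.9 CPM in heterozygous males, and 46.8, 43.2 and 46.5 CPM in wild-type males. Homozygous male 3 lay inside the wild-type range, and the log2 fold change of Ost4 was -0.21 (SE 0.12, edgeR adjusted p = 0.451).

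Apart from Krtcap2 and Ostc on chromosome 3 and Stt3a and Stt3b on chromosome 9, each member lies on a chromosome of its own (GRCm38.p6). The STT3A enzyme's Stt3a is at chr9:36729344-36767622 and Ostc at chr3:130695917-130709444. The STT3B enzyme's Stt3b is at chr9:115242470-115310468 and Magt1 at chrX:105968084-106011802. Of the shared subunits, Ddost is at chr4:138304738-138312619, Rpn2 at chr2:157279098-157326318, Dad1 at chr14:54235485-54253929 and Tmem258 at chr19:10204202-10207824.

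Over the complex, 9 of 10 members had a negative log2 fold change in homozygous against wild-type males, with a median of -0.33. Over all genes tested, 49.3% were negative and the median was 0.00. Values of the groups did not overlap for 5 members, all lower (Krtcap2, Rpn1, Stt3a, Ostc and Tmem258), and this held for 11.5% of all genes. No member was higher without overlap, against 9.27% of all genes. Krtcap2 was chosen on this comparison, so its place among the lower members is not a result. Only its partners can be set beside the shares of all genes.

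**Figure D3:**
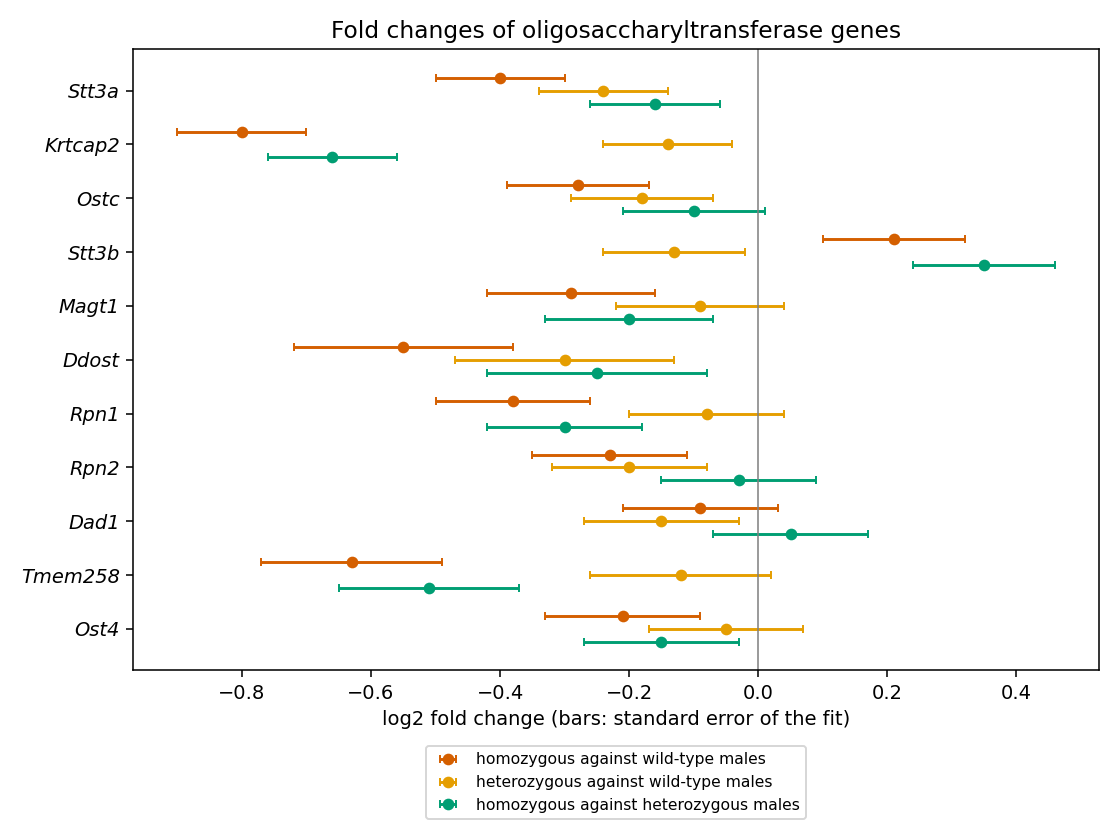
Log2 fold changes (points, horizontal axis) with the standard error of the edgeR fit (bars) for the 10 members and Ost4, in homozygous against wild-type, heterozygous against wild-type and homozygous against heterozygous males. Krtcap2 lies at -0.80 and -0.66 in the comparisons of homozygotes and at -0.14 in heterozygous against wild-type males, and Stt3b is at 0.21, -0.13 and 0.35. The comparisons share libraries.

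Homozygous against heterozygous males set 2 mutant alleles against 1. This comparison shares the homozygous libraries with the one on which Krtcap2 was chosen. The place of Krtcap2 in each count here is therefore not a result. Krtcap2 had a log2 fold change of -0.66 (SE 0.10), lower in 3 of 3 homozygous males, given as a description. edgeR called 0 of 12427 genes (0%) and 0 members. At an unadjusted p under 0.05, 1109 genes were lower (8.92%), among them Krtcap2, Tmem258 and Rpn1, and 1025 were higher (8.25%), among them Stt3b. DESeq2 called 515 genes (4.18%), 264 of them lower (2.14%), with 1 member among the lower ones, Krtcap2, and limma-voom called 0 genes. Without homozygous male 2, edgeR called 6 genes and 0 members. Groups did not overlap for 3 members that were lower (Krtcap2, Rpn1 and Tmem258, against 11.7% of genes) and 1 that was higher (Stt3b, against 10.7%). The log2 fold changes of Rpn1, Ddost, Magt1, Stt3a, Ostc and Rpn2 ran from -0.30 to -0.03, and that of Dad1 was 0.05. The median over members was -0.18, against 0.00 over all genes.

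Heterozygous against wild-type males asked what 1 mutant allele does, and shares the wild-type libraries with the comparison on which Krtcap2 was chosen. All 10 members had a negative log2 fold change, and 0 passed the threshold. The values ran from -0.30 (Ddost) to -0.08 (Rpn1), with a median of -0.15 over members and 0.01 over all genes, of which 48.4% were negative. Krtcap2 was at -0.14 (SE 0.10, edgeR adjusted p = 0.972). edgeR called 0 genes (0%) and 0 members, and 521 genes (4.19%) had an unadjusted p under 0.05. Of these, 313 were lower (2.52%) and include 1 member, Stt3a (log2 fold change -0.24, SE 0.10, unadjusted p = 0.0428, edgeR adjusted p = 0.972). DESeq2 called 7 genes (0.0599%) and 0 members, and limma-voom 0 genes. Stt3a was also the 1 member whose groups did not overlap, against 5.8% of genes that were lower without overlap. No member was higher without overlap, against 4.56% of genes.

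The homozygous female was set against the 3 homozygous males, with all 10 libraries fitted together and the lone female assumed to vary as the males do. Krtcap2 in the female lay 0.15 above the males on the log2 scale (SE 0.15, edgeR adjusted p = 0.79). Ostc was at 0.36 (SE 0.15, edgeR adjusted p = 0.445), Stt3a at 0.29 (SE 0.15, edgeR adjusted p = 0.541) and Rpn1 at -0.28 (SE 0.18, edgeR adjusted p = 0.637). The other 6 members lay between -0.17 and 0.21. edgeR called 10 of 12954 genes (0.0772%) and 0 members. At an unadjusted p under 0.05 there were 1340 genes (10.3%), 675 of them higher (5.21%), and Ostc was the 1 member. DESeq2 called 100 genes (0.808%) and limma-voom 15 (0.116%), with 0 members in each.

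Levels were compared between members per length, in TPM, apart from the ratios of Krtcap2 to other genes, which are in CPM. In homozygous males Dad1 averaged 209 ± 8.25 TPM, Tmem258 201 ± 30.1 TPM and Krtcap2 128 ± 6.40 TPM (SD, n = 3 each). In wild-type males the order was Tmem258 (277 ± 49.5 TPM), then Krtcap2 (200 ± 21.5 TPM) and Dad1 (200 ± 35.3 TPM), then Rpn2 (111 ± 9.15 TPM) and Ddost (94.0 ± 12.1 TPM). Krtcap2 was thus level with Dad1 in wild-type males and below all 3 Dad1 values in homozygous males. Rpn1 (58.6 ± 5.99 TPM), Ostc (48.0 ± 6.14 TPM) and Stt3a (41.9 ± 2.74 TPM) followed in wild-type males, and Stt3b (23.1 ± 2.72 TPM) and Magt1 (18.6 ± 2.24 TPM) came last. Neighbours whose wild-type values overlapped were Tmem258 and Dad1, Krtcap2 and Dad1, Rpn2 and Ddost, Ostc and Stt3a, and Stt3b and Magt1. The effective lengths behind these values are short for Tmem258 (150 bases), Krtcap2 (278 bases) and Dad1 (430 bases) and run up to 4106 bases for Stt3b.

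The reads of Krtcap2 were spread over 5 listed transcripts. NM_025327, which encodes the full 136 codons, had 309 expected reads in the homozygous female, 256, 266 and 260 in homozygous males, 449, 358 and 452 in heterozygous males, and 434, 453 and 500 in wild-type males. It carried most of the difference in reads and did not overlap between homozygotes and the others. XM_030252748, a predicted transcript, had 112 expected reads in the homozygous female, 76.5, 110 and 113 in homozygous males, 158, 175 and 180 in heterozygous males, and 180, 146 and 188 in wild-type males. This transcript too was lower in all 4 homozygotes.

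NM_001310625, which lacks the 22 codons shown in capitals above, did not follow them. It had 30.9 expected reads in the homozygous female, 49.1, 36.0 and 37.2 in homozygous males, 50.9, 41.1 and 41.5 in heterozygous males, and 25.5, 32.4 and 37.8 in wild-type males. Its share of Krtcap2 reads was 6.5% in the homozygous female, 12.3%, 8.4% and 8.8% in homozygous males, 7.6%, 6.9% and 6.0% in heterozygous males, and 3.9%, 4.9% and 5.0% in wild-type males. The share lay above wild type in all 7 livers with a mutant allele and was highest in the homozygous males, while the homozygous female lay among the heterozygous males. These shares come from the authors' division of reads among overlapping transcripts, rest on few reads, and were picked after being seen, so no test is given.

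**Figure D4:**
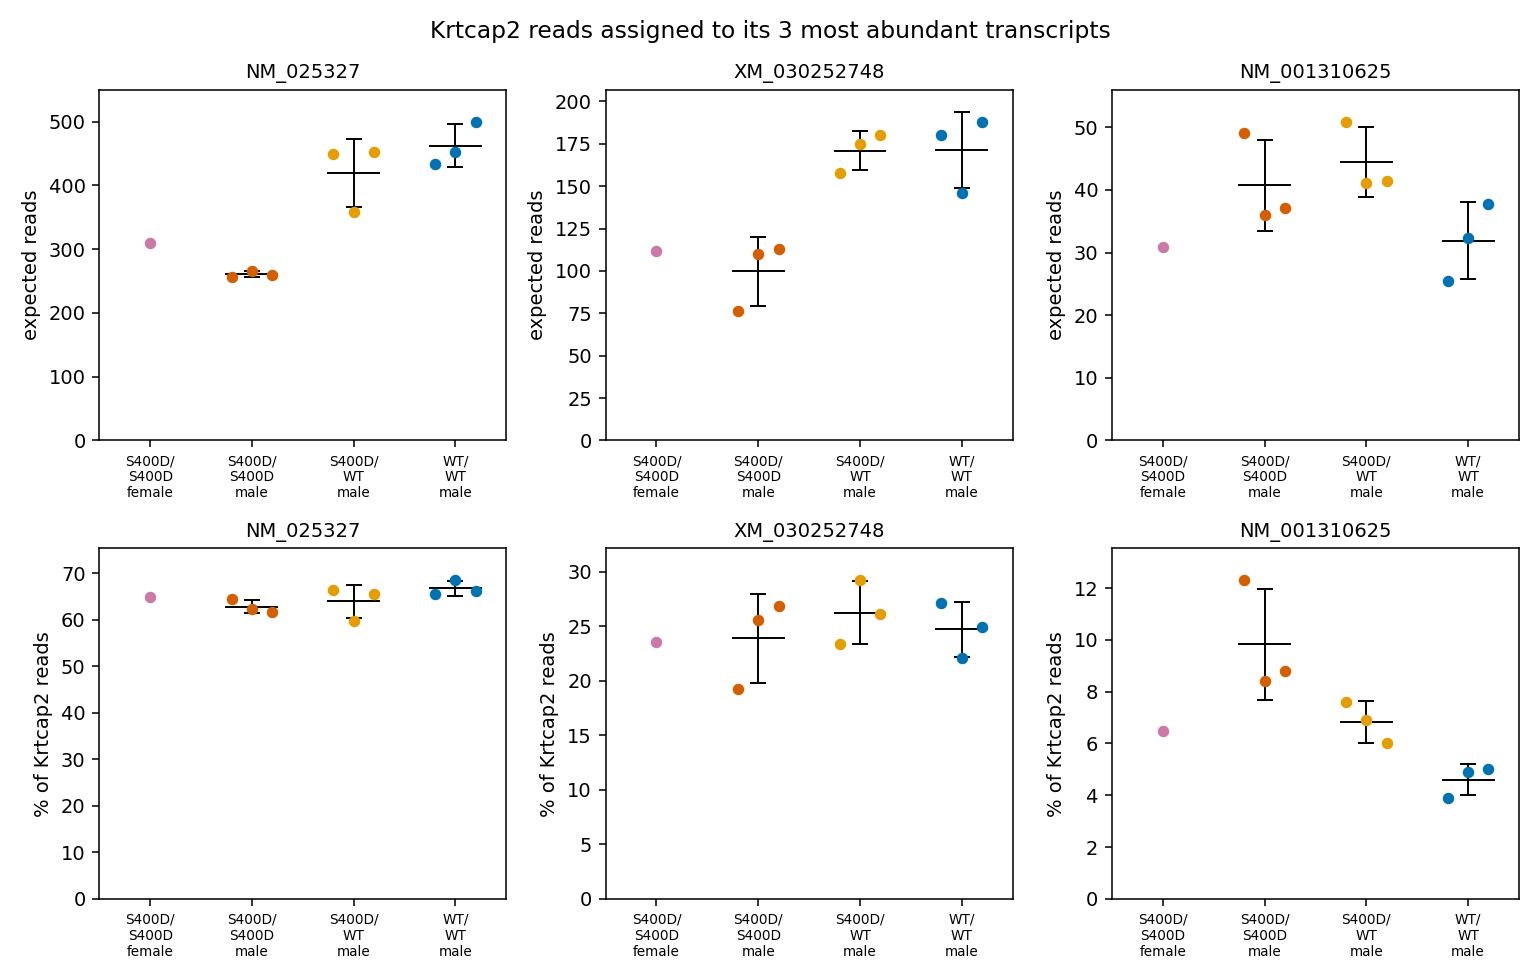
Expected reads (top row) and percent of all Krtcap2 reads (bottom row), on linear axes from 0, for the 3 transcripts with most reads, in the homozygous female and homozygous, heterozygous and wild-type males. Points are libraries and black bars the mean ± SD of 3 males. NM_025327 has 256 to 309 reads in homozygotes and 358 to 500 in the others, while the share of NM_001310625 runs from 6.5% to 12.3% in homozygotes and from 3.9% to 5.0% in wild-type males.

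Of 11 listed neighbours of Krtcap2 on chromosome 3, 8 were tested, and 0 had an unadjusted p under 0.05 in homozygous against wild-type males, as 14.9% of all genes did. Their log2 fold changes were negative for 6 of the 8 (median -0.10). Those with the smallest p were Muc1 (-1.02, SE 0.53, edgeR adjusted p = 0.395), a mucin gene at 0.171 to 1.41 CPM, and Slc50a1 (-0.44, SE 0.23, edgeR adjusted p = 0.405), a sugar transporter. Trim46 overlaps the annotated Krtcap2 gene by 455 bases and was between 0.06 and 0.41 CPM in all 10 libraries. Dpm3, a subunit of dolichol-phosphate-mannose synthase that starts 7335 bases past the end of Krtcap2, had 15.2 CPM in the homozygous female, 16.2, 14.0 and 15.9 CPM in homozygous males, 14.6, 17.9 and 14.3 CPM in heterozygous males, and 17.1, 16.4 and 17.3 CPM in wild-type males. Its log2 fold change in homozygous against wild-type males was -0.14 (SE 0.12, edgeR adjusted p = 0.588). Htra2 itself had 13.7 CPM in the homozygous female, 14.6, 15.6 and 14.5 CPM in homozygous males, 15.2, 16.7 and 15.7 CPM in heterozygous males, and 17.3, 12.3 and 12.6 CPM in wild-type males. These groups overlapped, and a point mutation need not alter the gene's RNA, so Htra2 levels do not check the genotype labels.

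Translocon genes, which make and serve the channel at which the STT3A enzyme works, were mostly lower in homozygous males. Their values were not corrected for the length trend. Of 24 on the list, 23 had a negative log2 fold change against wild-type males (median -0.29), 12 were lower at an unadjusted p under 0.05 (8.08% of all genes were), and 0 passed after adjustment. Sec61b, a subunit of the SEC61 channel, had 32.6 CPM in the homozygous female, 27.8, 33.4 and 30.4 CPM in homozygous males, 45.5, 42.1 and 43.7 CPM in heterozygous males, and 41.0, 45.6 and 53.1 CPM in wild-type males, with a log2 fold change of -0.60 (SE 0.11, edgeR adjusted p = 0.147). Ssr1, of the translocon-associated TRAP complex, had 88.7 CPM in the homozygous female, 78.0, 82.0 and 83.9 CPM in homozygous males, 108, 101 and 98.4 CPM in heterozygous males, and 110, 120 and 112 CPM in wild-type males, with a log2 fold change of -0.49 (SE 0.09, edgeR adjusted p = 0.147). For both genes the 4 homozygotes lay below the 6 other livers. Ssr2, also of TRAP, was at -0.42 (SE 0.09, edgeR adjusted p = 0.16). In homozygous against heterozygous males, 19 of 24 were negative (median -0.17, 6 lower at an unadjusted p under 0.05, against 8.92% of all genes), and in heterozygous against wild-type males 21 of 24 were (median -0.10, 2 lower, against 2.52% of all genes).

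Enzymes that build the lipid-linked sugar donor were more mixed. In homozygous against wild-type males 21 of 32 were negative (median -0.17), with 6 lower and 1 higher at an unadjusted p under 0.05 (8.08% and 6.82% of all genes), and 0 past adjustment. Pmm2, the phosphomannomutase on the way to activated mannose, had 40.3, 43.6 and 36.5 CPM in homozygous males, against 55.0, 55.7 and 51.9 CPM in wild-type males, a log2 fold change of -0.43 (SE 0.09, edgeR adjusted p = 0.156). Dpm2, a subunit of dolichol-phosphate-mannose synthase, had 9.48, 10.3 and 10.2 CPM in homozygous males, against 12.5, 14.4 and 15.0 CPM in wild-type males, a log2 fold change of -0.48 (SE 0.11, edgeR adjusted p = 0.167). Alg10b, a glucosyltransferase of the last step, was higher at 0.54 (SE 0.15, edgeR adjusted p = 0.207). The homozygous female was nearer to wild-type males for the first 2, with 56.0 CPM of Pmm2 and 14.5 CPM of Dpm2. In homozygous against heterozygous males 22 of 32 were negative (median -0.12), and in heterozygous against wild-type males 18 of 32 (median -0.03).

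Genes that trim and check the attached sugar had no common direction in homozygous against wild-type males, with 13 of 21 negative and a median of -0.02. At an unadjusted p under 0.05, 3 were lower, against 8.08% of all genes. Among them were Calr (calreticulin, a lectin chaperone, log2 fold change -0.32, SE 0.12, edgeR adjusted p = 0.278) and Edem2 (-0.31, SE 0.13, edgeR adjusted p = 0.30). On the other side 2 were higher, against 6.82% of all genes. Among them was the mannosidase Man1a with 331, 250 and 297 CPM in homozygous males, against 195, 225 and 235 CPM in wild-type males (log2 fold change 0.42, SE 0.13, edgeR adjusted p = 0.229). Against heterozygous males 16 of 21 were positive (median 0.09), with 6 higher and 1 lower at an unadjusted p under 0.05 (8.25% and 8.92% of all genes). In heterozygous against wild-type males 19 of 21 were negative (median -0.13), with 3 lower at an unadjusted p under 0.05 (2.52% of all genes). For the unfolded protein response, 15 of 20 genes were negative in homozygous against wild-type males (median -0.17), with 2 lower at an unadjusted p under 0.05, near the 8.08% of all genes. These were the chaperone gene Hsp90b1 (-0.40, SE 0.14, edgeR adjusted p = 0.26) and Xbp1, a transcription factor of the response (-0.92, SE 0.35, edgeR adjusted p = 0.282). Xbp1 had 181, 129 and 129 CPM in homozygous males, against 191, 408 and 233 CPM in wild-type males, so its wild-type values were widely spread. Against heterozygous males, 9 of the 20 were negative and 11 positive (median 0.04), with 2 lower and 3 higher at an unadjusted p under 0.05 (8.92% and 8.25% of all genes). In heterozygous against wild-type males, 15 of 20 were negative (median -0.19).

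Some features of the libraries moved with genotype, and their part in these results was not tested, apart from a fit with the length trend removed. Library totals were alike, from 16240441 to 17264289 expected counts. The abundance-weighted mean effective length of the RNA was 1452.3 bases in the homozygous female and 1439.1 to 1459.9 bases in homozygous males, against 1272.1 to 1364.6 bases in heterozygous males and 1307.2 to 1381.0 bases in wild-type males. With the trend of fold change on length removed, Krtcap2 was at -0.53 in homozygous against wild-type males, Tmem258 at -0.32 and Dad1 at 0.16, while Ostc was at -0.11, Stt3b at 0.14, Ddost at -0.53 and Stt3a at -0.46. The Krtcap2 value in homozygous against heterozygous males was then -0.37. Counts over the gene lists, and correlations with Krtcap2, were made without removing this trend. Among clock genes, Arntl was at 17.4, 26.1 and 38.1 CPM in homozygous males and 31.5 CPM in heterozygous male 2, against 1.17 to 4.25 CPM in the other 6 libraries. Heterozygous male 2 had 35.4 CPM of Krtcap2 with the high Arntl level, the lowest value outside the homozygotes. The homozygous female had 27.0 CPM with a low Arntl level (1.59 CPM), the highest value among the homozygotes. Ostc and Stt3a split by Arntl level. The share of all genes that split in the same way was not computed. In homozygous males and heterozygous male 2, Ostc was at 22.4 to 25.4 CPM and Stt3a at 78.4 to 90.5 CPM. In the low-Arntl libraries they were at 26.7 to 31.0 CPM and 95.7 to 116 CPM. The other members did not split this way, and a part of the clock in these values was not tested. Summed hepatocyte markers ran from 104727 to 122441 TPM in homozygous males, against 83106 to 93415 TPM in wild-type males, and all 6 were present in every library. That sum is mostly Alb, and over the 6 markers 4 log2 fold changes were positive and 2 negative (median 0.08). Summed Kupffer cell markers ran from 499 to 542 TPM in homozygous males, against 179 to 551 TPM in wild-type males (10 of 10 with a positive log2 fold change, median 0.64). Summed endothelial markers ran from 142 to 152 TPM in homozygous males, against 48.9 to 143 TPM in wild-type males (8 of 8 positive, median 0.59), and stellate markers from 165 to 245 TPM, against 57.7 to 148 TPM (7 of 8 positive). Cholangiocyte markers ran from 27.8 to 52.3 TPM in homozygous males, against 42.5 to 50.3 TPM in wild-type males, and 4 of 5 had a negative log2 fold change (median -0.48). The positive one, Sox9, had the largest change (1.57, SE 0.55, edgeR adjusted p = 0.26). Spp1, the most abundant in CPM, averaged 26.2 CPM in homozygous and 36.6 CPM in wild-type males. Summed antibody-secreting cell markers (6 of 8 in the table) ran from 233 to 267 TPM in homozygous males, against 261 to 319 TPM in wild-type males, while 4 of the 5 tested had a positive log2 fold change (median 0.33). The most abundant were Sdc1 (231 CPM in homozygous and 201 CPM in wild-type males) and Xbp1 (147 and 277 CPM), the 1 negative marker. Jchain, Mzb1 and Derl3 averaged 0.8 to 6.83 CPM in homozygous males, so the sum says little about this cell type.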

How the data were processed

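Liver RNA was sequenced in 10 libraries, and the table deposited by the authors lists expected counts, FPKM and TPM for 77712 transcripts in each library. The authors' deposited expected counts are estimated reads per transcript. The authors' FPKM and TPM are scaled for length and depth, TPM to a common total. HISAT, Bowtie2 and GRCm38.p6 are named in the submitters' processing notes, but tool versions and roles, the counting program and its strand setting are not given in the sources used. Expected counts were summed by gene ID to 19271 genes (19214 matched to RefSeq) and rounded. A whole number of reads, to a tolerance of 0.05, was found for 94.5% of nonzero sums. Genes were filtered with filterByExpr, scaled by TMM and tested with the quasi-likelihood test of edgeR 4.0.16 in R 4.3.3 (threshold 0.05 after Benjamini-Hochberg adjustment over all genes). The 9 males entered 1 fit with 6 residual degrees of freedom (12427 genes), and all 10 libraries entered the fit for the female (12954 genes). DESeq2 1.42.0 and limma 3.58.1 were alternatives. The procedure was tested on simulated data with a capped spread and planted changes larger than those of the members. That test therefore does not show how often changes of the members' size are found. CPM are TMM-scaled, and TPM of a gene is the sum over its transcripts. The authors' averaged columns were not used. The markers of 1 further cell type are not reported here. The 10 members, the gene lists and the motifs were chosen with earlier results of these data known. Beyond the members, up to 3 genes per list with the smallest unadjusted p were eligible to be named.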

Additional observations from a re-analysis of the deposited data

How the results depend on the processing

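The main results above were recomputed with DESeq2, limma-voom, other scalings, other filters on low counts, log2(FPKM + 1) and log2(FPKM + 0.1), curated transcripts only, a length trend removed, other sets of samples in the fit, and without each male in turn. Of the alternative values of the members' log2 fold changes, 778 kept their direction and side of the threshold, 5 crossed it and 17 changed sign. DESeq2 called 3 members and 310 genes in homozygous against wild-type males, 1 member and 515 genes in homozygous against heterozygous males, 7 genes in heterozygous against wild-type males and 100 in the female comparison, and the cause was not tested. The female comparison, with 10 genes in edgeR, gave 5 with at least 1 CPM in 3 samples, 6 with log2(FPKM + 0.1) and 7 to 11 without each male. Leaving out 1 male gave 0 to 1 members and 0 to 18 genes in homozygous against wild-type males. There were 18 genes, Krtcap2 among them, without wild-type male 1, and 2 genes without homozygous male 2. In homozygous against heterozygous males it gave 0 to 6 genes (6 without homozygous male 2). Krtcap2 was chosen on homozygous against wild-type males, and homozygous against heterozygous males shares the homozygous libraries. The place of Krtcap2 in the counts of either comparison is therefore not a result. Krtcap2 ran from -0.81 to -0.53 in homozygous against wild-type males under the other settings and from -0.87 to -0.72 without 1 male, and from -0.68 to -0.37 and from -0.72 to -0.61 in homozygous against heterozygous males.

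In homozygous against wild-type males, Dad1 was 0.16 with the length trend removed and ran from -0.19 to 0.05 without 1 male. In heterozygous against wild-type males, Rpn1 was 0.0002 by library size alone and ran from -0.17 to 0.01 without 1 male, Stt3a was 0.09 on curated transcripts, and Tmem258 ran from -0.26 to 0.0002 without 1 male. In homozygous against heterozygous males, Rpn2 was 0.25 on curated transcripts and ran from -0.12 to 0.06 without 1 male, and Ostc was 0.09 with the length trend removed. In the female comparison, Stt3b was 0.03 by library size alone, 0.04 and 0.05 with log2(FPKM + 1) and log2(FPKM + 0.1), 0.01 with the length trend removed and ran from -0.08 to 0.10 without 1 male, Ddost ran from -0.04 to 0.28 and Tmem258 from -0.02 to 0.12. Replicate numbers are shared between genotypes, but same-numbered libraries did not deviate together (correlations from -0.438 to 0.195), so they were not read as pairs. With the replicate number as a block, edgeR called 0 genes and 0 members in each male comparison. Adjusted p-values rest on 3 libraries a group and 6 residual degrees of freedom. Members with few reads, such as Ostc, Tmem258 and Krtcap2, have the wider counting error. The SE also holds the spread between libraries and did not follow reads alone (0.10 for Krtcap2 and 0.17 for Ddost in homozygous against wild-type males).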

Other observations

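The log2 CPM of 7694 genes averaging 10 CPM or more was compared with that of Krtcap2 over the 9 males. Genes with predicted or accession-like names were then left out. The 5 remaining genes that followed Krtcap2 most closely were Mcee (Pearson 0.978), Sec61b (0.976), Mrps24 (0.972), Dpm2 (0.962) and Ssr1 (0.961). The CPM behind these correlations were not corrected for the length trend, whose part in them was not tested. Mcee, methylmalonyl-CoA epimerase, had 27.3 CPM in the homozygous female, 22.6, 24.6 and 24.4 CPM in homozygous males, 31.1, 29.2 and 30.7 CPM in heterozygous males, and 30.4, 30.5 and 31.0 CPM in wild-type males. Its 4 homozygotes lay below the 6 other livers. Mrps24, a protein of the small mitochondrial ribosome subunit, had 33.7, 34.6 and 35.1 CPM in homozygous males, 39.4, 37.2 and 39.3 CPM in heterozygous males, and 37.5, 39.3 and 39.3 CPM in wild-type males. Its homozygous female, at 39.3 CPM, lay with the wild-type males.

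Within the complex the same correlation with Krtcap2 was 0.92 for Tmem258, 0.84 for Rpn1, 0.82 for Ddost, 0.81 for Stt3a, 0.66 for Ostc, 0.64 for Rpn2, 0.62 for Ost4, 0.56 for Magt1, 0.31 for Dad1 and -0.64 for Stt3b. The genomic neighbour Dpm3 was at 0.25. These values describe 9 libraries in 3 genotypes, share their depth, scaling and length trend, and carry no p.

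Against its partner Ostc, Krtcap2 in CPM was at 0.883 in the homozygous female, 0.894, 1.08 and 1.11 in homozygous males, 1.48, 1.58 and 1.46 in heterozygous males, and 1.26, 1.5 and 1.67 in wild-type males. Against the catalytic subunit Stt3a it was at 0.259 in the homozygous female, 0.251, 0.286 and 0.324 in homozygous males, 0.397, 0.408 and 0.406 in heterozygous males, and 0.362, 0.367 and 0.402 in wild-type males. Both ratios were lower in all 4 homozygotes than in the 6 other livers, and both were formed after the values had been seen. They are not corrected for the length trend, and effective lengths differ (278 bases for Krtcap2, 789 for Ostc and 3500 for Stt3a). With that trend removed, log2 fold changes in homozygous against wild-type males were -0.53 for Krtcap2, -0.46 for Stt3a and -0.11 for Ostc. Against heterozygous males they were -0.37, -0.19 and 0.09.

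Other transcript shares also differed between libraries. The NM_025952 transcript of Magt1 took 18.1% of the gene's reads in the homozygous female, 7.9%, 13.1% and 12.8% in homozygous males, 12.9%, 12.6% and 17.1% in heterozygous males, and 17.2%, 15.7% and 15.5% in wild-type males. Homozygous males lay below wild-type males, and the homozygous female lay above them. The NM_001134692 transcript of Ost4 took 18.7% in the homozygous female, 30.5%, 27.9% and 33.2% in homozygous males, 22.2%, 28.0% and 24.5% in heterozygous males, and 22.2%, 26.2% and 21.3% in wild-type males.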
